A study of Mus musculus with 36 samples.

Results

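Wild-type Th1 cells and wild-type Th2 cells, both CD4 T helper cells of the mouse, are compared here gene by gene. The 6 samples were those titled Th1 and Th2 of the wild-type genotype, 3 of each, among 36 samples in all, and 13082 of 22180 genes with a probe set of their own symbol were tested. The study ran expression arrays on mouse CD4 T cells that were naive or had been stimulated for 72 h through CD3, with plate-bound antibody, and through CD28, with soluble antibody, under conditions named Th1, Th2, Th17, Treg or Th0. The mice were either littermates with wild-type alleles (WT) or Trim28-KO animals (KO), which lack TRIM28, a co-repressor recruited to DNA by zinc-finger proteins with a KRAB domain. All cultures started from sorted naive CD4 T cells. The cytokines and antibodies of each condition, the way Trim28 was deleted, and the strain and age of the mice are not given in the sources used here. The WT Th0 samples (3) serve as the stimulated cells without a named lineage, and the KO Th1 and KO Th2 samples (3 each) as a second, separate measurement of the same contrast. Whether the 3 samples of a group are from different mice is not stated, and p-values here reflect only the variation among samples, which may be technical.

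Naive CD4 T cells that meet antigen become helper cells whose type depends on the cytokines around them. Interleukin-12 and interferon-gamma, through STAT4 and the T-box factor T-bet (gene Tbx21), lead to Th1 cells, which secrete interferon-gamma and act against intracellular microbes. Interleukin-4, through STAT6 and GATA3, leads to Th2 cells, which secrete interleukins 4, 5 and 13 and act against worms and in allergy, and each program is known to restrain the other.

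All values are log2 array levels, and a difference is the mean of the Th1 samples minus that of the Th2 samples, so that 1 is a 2-fold difference. Errors of differences are standard errors (one model in limma over the 36 samples), and a gene was called at a Benjamini-Hochberg adjusted p under 0.05 over the 13082 genes tested. The medians of the 6 arrays lay between 5.19 and 5.21. Correlations between arrays, over the genes tested, ran from 0.991 to 0.993 within Th1, from 0.979 to 0.994 within Th2 and from 0.916 to 0.944 between them. The Th2 sample numbered 1 lay nearer to the Th1 samples (0.943 to 0.944) than the other Th2 samples did (0.916 to 0.927), and among the 405 genes at least 2-fold higher in Th1 it was the Th2 sample nearest to Th1 in 229, as it was in 405 of the 569 genes at least 2-fold lower. Trim28 stood at 9.64 to 9.76 in Th1 and 9.69 to 9.99 in Th2 samples of WT cells (adjusted p = 0.58), against 5.51 to 6.23 in KO Th1 and 6.28 to 6.58 in KO Th2 samples. RMA values carry no detection call, and with 3 arrays a group the precision is limited.

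Of the genes tested, 4857 (37.1%) were called, 2566 higher (19.6%) and 2291 lower (17.5%) in Th1 than in Th2 cells. At least 2-fold differences were called for 405 genes that were higher (3.1%) and 569 that were lower (4.35%). The levels of the 3 Th1 and the 3 Th2 samples did not overlap for 6552 genes (50.1%), and the median difference of all genes was 0.03. Against Th0, 157 of the 405 higher genes were above Th0 in Th1 cells and 290 were below Th0 in Th2 cells; of the 569 lower genes, 84 were below Th0 in Th1 cells and 536 were above Th0 in Th2 cells. The backgrounds over all genes were 5.43% above and 5.4% below Th0 in Th1, and 17.2% above and 22.9% below Th0 in Th2. Both comparisons use the same 3 Th0 samples.

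Tbx21 and Ifng were higher, and Gata3, Il4 and Il13 lower, in Th1 than in Th2 cells. Tbx21, the gene of T-bet, stood at 10.42, 10.78 and 11.18 in the Th1 samples, against 5.31, 5.79 and 5.67 in the Th2 samples and 6.57, 7.27 and 6.21 in the Th0 samples. All Th1 samples lay above all others, a difference of 5.20 ± 0.24 to Th2, or 36.8-fold (adjusted p = 2.4e-16). Ifng, interferon-gamma itself, had 9.84, 10.57 and 10.69 in Th1, against 5.50, 5.31 and 5.39 in Th2. Th0 cells had 5.44, 6.37 and 5.38, in the range of Th2 but for the second sample, and the difference between Th1 and Th2 was 4.97 ± 0.51 (adjusted p = 6.5e-09). Gata3 had 8.18, 8.13 and 8.19 in Th1, against 10.36, 10.57 and 10.49 in Th2 cells, with no overlap and a difference of -2.31 ± 0.17 (adjusted p = 8.2e-12). Il4 had 4.28, 4.27 and 4.17 in Th1, against 8.33, 8.67 and 8.70 in Th2, a difference of -4.33 ± 0.19 (adjusted p = 1.2e-16). Il13 had 5.73, 6.11 and 5.89 in Th1, against 10.38, 10.21 and 10.61 in Th2, a difference of -4.49 ± 0.32 (adjusted p = 3.8e-12). Neither cytokine overlapped between the groups. Set beside Th0, Il4 in Th1 was lower by a difference of -0.66 (adjusted p = 0.023), and Il13 in Th1 was not called (-0.36, adjusted p = 0.6).

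**Figure D1:**
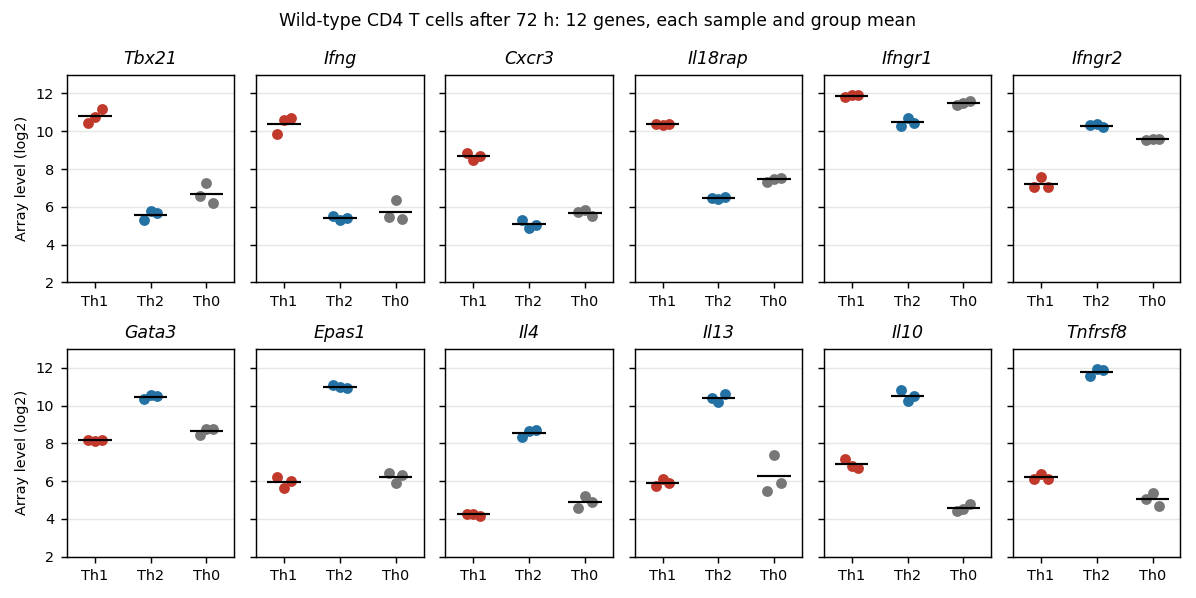
Array levels (log2, vertical axes) of 12 genes in the 3 WT Th1, 3 WT Th2 and 3 WT Th0 samples; each point is a sample and each bar a group mean. Tbx21, Ifng, Cxcr3, Il18rap and Ifngr1 lie higher in every Th1 sample than in any Th2 sample, and the other 7 lie lower.

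Among 14 transcription factors tied to Th1 cells, 7 were higher and 3 lower in Th1, beside 19.6% and 17.5% over all genes. The median difference was 0.20, beside 0.03 for all genes. After Tbx21 came Irf8, which had 9.97 to 9.99 in Th1 and 7.48 to 7.72 in Th2 samples (2.39 ± 0.39), and Hopx, a small homeodomain protein that sustains Th1 effector cells, at 2.38 ± 0.16. Eomes, the T-box relative of T-bet best known in CD8 T and NK cells, had 8.13, 7.79 and 7.79 in Th1, against 6.57, 6.19 and 5.39 in Th2 (1.85 ± 0.26). Irf1, an interferon-induced activator, differed by 1.34 ± 0.20. Stat4, which carries the interleukin-12 signal, and Runx3, a partner of T-bet, were higher by only 0.43 ± 0.16 and 0.30 ± 0.12, and with adjusted p of 0.034 and 0.042 they lost their call when single samples were left out: Stat4 without Th1 sample 1 or 3 or Th2 sample 2 or 3, and Runx3 without any of the 6 but Th1 sample 2. The activator protein 1 relatives Fosl2 (-1.77 ± 0.21) and Atf3 (-1.65 ± 0.36) and the T cell factor Ets1 (-0.38 ± 0.08) were lower in Th1. Bhlhe40 (0.10), Twist1 (0.07), Id2 (-0.08) and Hlx (-0.11) were not called.

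Receptors that mark or instruct Th1 cells were mostly higher in Th1, 10 of 16 against 3 lower. The backgrounds were 19.6% and 17.5%, and the median was 1.46. Il18rap, a subunit of the interleukin-18 receptor, had 10.40, 10.34 and 10.36 in Th1, against 6.47, 6.42 and 6.53 in Th2 (3.90 ± 0.30). Its partner Il18r1 differed by 3.38 ± 0.22 and the inducible interleukin-12 receptor chain Il12rb2 by 2.5 ± 0.31, while the shared chain Il12rb1 was lower in Th1 (-0.68 ± 0.24). Cxcr3, which guides Th1 cells to interferon-induced chemokines, had 8.88, 8.50 and 8.68 in Th1, against 5.28, 4.90 and 5.05 in Th2 (3.61 ± 0.17). Ly6c2 (3.47 ± 0.41) and Ly6c1 (2.33 ± 0.26), surface markers of effector Th1 cells, the adhesion receptor Cd226 (1.98 ± 0.19), Ccr2 (1.52 ± 0.39) and Cxcr6 (0.95 ± 0.32) were also higher. Havcr2, the gene of TIM-3, was low on the array throughout, at 4.14, 4.71 and 4.76 in Th1 and 4.68, 5.50 and 5.81 in Th2 samples (-0.79 ± 0.20). Il27ra (0.02), S1pr5 (-0.04) and Slamf7 (-0.49) were not called.

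The chains of the interferon-gamma receptor went opposite ways. Ifngr1, the ligand-binding chain, had 11.79, 11.90 and 11.92 in Th1, against 10.29, 10.68 and 10.44 in Th2, a difference of 1.40 ± 0.15 (adjusted p = 1.9e-08). Ifngr2, the signaling chain, had 7.05, 7.58 and 7.04 in Th1, against 10.31, 10.37 and 10.23 in Th2, a difference of -3.07 ± 0.16, or 8.42-fold lower in Th1 (adjusted p = 8.8e-15). Neither chain overlapped between the groups. Set beside Th0 (9.56 to 9.58), Ifngr2 was lower in Th1 by a difference of -2.34 (adjusted p = 3.5e-11) and higher in Th2 by 0.73 (adjusted p = 0.00075), whereas Ifngr1 in Th1 was not called against Th0 (0.37, adjusted p = 0.13) and was lower in Th2 (-1.03). The KO cells gave 0.84 for Ifngr1 and -2.13 for Ifngr2, both called.

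Of 13 cytokine and chemokine genes of Th1 cells, 7 were higher and 1 was lower (19.6% and 17.5% over all genes), with a median of 0.97. Besides Ifng these were Fasl, the death ligand (2.44 ± 0.24), Lta (1.23 ± 0.37), Tnf (1.16 ± 0.27), Tnfsf10, the gene of TRAIL (0.99 ± 0.20), the chemokine Ccl4 (0.59 ± 0.22) and Ltb (0.40 ± 0.12). Tnfsf14, the gene of LIGHT, was lower (-1.39 ± 0.23). Ccl3 ranged widely, at 5.93, 8.94 and 7.83 in Th1 and 4.52, 5.59 and 5.22 in Th2 samples, and its difference of 2.45 ± 1.15 was not called (adjusted p = 0.097). Xcl1 (0.97 ± 0.76), Ccl5 (0.35), Il2 (0.34) and Osm (0.29) were not called. Il2 lay near the low end of the array, at 4.04 to 4.37 in Th1 and 3.69 to 4.12 in Th2 samples. Of 7 genes tested around Ifng on chromosome 10, Ifng counted, 6 were higher in Th1 than in Th2, at a background of 19.6%. Among them were Dyrk2 (1.06 ± 0.10), Nup107 (1.0 ± 0.15) and Mdm1 (0.89 ± 0.14). Against Th0, 2 of the 7 were above in Th1 cells (5.43% over all genes) and 5 were below in Th2 cells (22.9%). Nup107 had a Th0 mean of 8.88, beside 8.77 to 8.94 in Th1 and 7.65 to 8.29 in Th2 samples.

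Genes for transcription factors and other regulators of Th2 cells were lower in Th1 in 13 of 19 cases and higher in 1. The backgrounds were 17.5% and 19.6%, and the median was -0.63. Epas1, the gene of the hypoxia-inducible factor HIF-2 alpha, had 6.21, 5.64 and 5.98 in Th1, against 11.06, 10.99 and 10.93 in Th2 and 6.45, 5.91 and 6.33 in Th0. Th1 and Th0 cells lay together, and Th1 differed from Th2 by -5.05 ± 0.16. Nfil3, a basic leucine zipper repressor, followed at -3.29 ± 0.21, then Pparg, a lipid-sensing nuclear receptor (-2.71 ± 0.30), Bhlhe41, a basic helix-loop-helix repressor also called DEC2 (-2.42 ± 0.20), Maf, an activator of Il4 (-2.41 ± 0.16), and Ecm1, a secreted protein that helps Th2 cells leave lymph nodes (-2.33 ± 0.19). Irf4 (-1.33 ± 0.32), Cebpb (-0.74 ± 0.19), Stat5b (-0.63 ± 0.09), Satb1 (-0.62 ± 0.13), Junb (-0.60 ± 0.14) and Stat5a (-0.55 ± 0.14) were lower by less. Stat6 itself had 10.05 to 10.22 in Th1 and 10.23 to 10.41 in Th2 samples and was not called (adjusted p = 0.081), nor were Nfatc1 (0.28), Nfatc2 (0.07), Dennd1b (0.00) and Notch1 (-0.10). Gfi1, a repressor that supports the growth of Th2 cells, was higher in Th1 (1.07 ± 0.21).

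Among 11 Th2 cytokine genes 6 were lower in Th1 and 1 was higher (17.5% and 19.6% over all genes), with a median of -2.45. Il10, the anti-inflammatory cytokine, had 7.17, 6.82 and 6.72 in Th1, against 10.84, 10.24 and 10.50 in Th2 and 4.4, 4.55 and 4.78 in Th0. Both lineages were above Th0, Th2 further than Th1, and the difference between them was -3.62 ± 0.44, or 12.3-fold lower in Th1 (adjusted p = 1.7e-07). Il24, a member of the interleukin-10 family that like Il10 lies on chromosome 1, showed the same order, with 6.38, 7.93 and 7.11 in Th1 and 10.86, 11.33 and 11.21 in Th2 samples (-3.99 ± 0.34). Il6 (-2.45 ± 0.26) and Penk, the precursor of enkephalin peptides (-3.05 ± 0.97), were also lower, Penk with Th1 levels spread over 6.77, 9.98 and 8.68. Csf2, the gene of GM-CSF, went the other way, at 6.41, 6.39 and 6.36 in Th1 and 4.57, 4.58 and 4.50 in Th2 samples (1.83 ± 0.32). Il9 (-1.27 ± 0.53), Il3 (-0.86), Tnfsf11 (-0.13) and Ccl22 (0.26) were not called. Il5 and Il31 did not pass the filter (a level over 5.26 in at least 3 of the 36 samples), with Il5 at 4.65, 4.88 and 4.17 in Th1 and 5.50, 5.19 and 5.67 in Th2 samples and Il31 at 4.20 to 4.24 in Th1 and 5.08 to 5.13 in Th2 samples. Ccl1, Ccl17, Ccr3 and Ccl9 did not pass it either.

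Il4 and Il13 lie near each other on chromosome 11, and their promoters are shown because these genes carry the Th2 side of the contrast. The sequences are RefSeq windows on GRCm38.p6, from 250 bases before to 50 bases after the start, on the strand of the gene (minus), at chr11:53618616-53618915 for Il4 and chr11:53634653-53634952 for Il13. Il4 has a pair of windows in RefSeq, of which the more upstream is shown. Capitals mark TTC and GAA with any 4 bases between them, the spacing that STAT6 is known to prefer, and GATAA, the core letters that GATA factors read, searched on both strands, with no overlap between them.
Il4: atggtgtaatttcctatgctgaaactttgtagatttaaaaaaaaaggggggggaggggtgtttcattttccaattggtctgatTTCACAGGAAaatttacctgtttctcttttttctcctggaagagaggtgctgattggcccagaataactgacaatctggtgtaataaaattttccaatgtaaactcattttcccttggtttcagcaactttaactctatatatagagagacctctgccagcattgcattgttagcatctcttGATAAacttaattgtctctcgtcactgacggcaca
Il13: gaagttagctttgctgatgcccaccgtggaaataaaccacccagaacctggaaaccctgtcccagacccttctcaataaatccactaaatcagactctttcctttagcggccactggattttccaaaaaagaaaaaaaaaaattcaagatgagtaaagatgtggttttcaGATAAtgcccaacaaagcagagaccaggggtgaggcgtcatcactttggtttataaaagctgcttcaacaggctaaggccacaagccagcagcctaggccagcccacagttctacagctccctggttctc
In Il4 the marked letters are 1 such pair of half-sites and 1 GATAA, and in Il13 1 GATAA. Of 27025 genes with a promoter window, 8.01% held TTC and GAA at that spacing and 28.4% held GATAA. Of the called Th2 cytokine genes, 3 of 6 had a window, and all 3 held GATAA; of the called Th2 receptor genes 5 of 9 with a window held it, and of the called Th2 factor genes 0 of 11. The pair at the 4-base spacing was held by 1 of the 3 cytokine genes, 0 of the 9 receptor genes and 0 of the 11 factor genes. A match of letters is not a bound site.

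Of 13 genes tested around the Th2 cytokines on chromosome 11, Il4 and Il13 counted, 6 were lower and 2 higher in Th1. The backgrounds over all genes were 17.5% lower and 19.6% higher. P4ha2 (-1.92 ± 0.21), Pdlim4 (-1.85 ± 0.30), Septin8 (-1.12 ± 0.17) and Kif3a (-1.05 ± 0.19) were lower, as were Il4 and Il13. Csf2 and Irf1 were higher, as given above. Against Th0, of the 13 genes 1 was above and 5 were below in Th1 cells, and 4 were above and 3 below in Th2 cells. Over all genes these shares were 5.43% and 5.4% in Th1, and 17.2% and 22.9% in Th2. Pdlim4 had a Th0 mean of 8.10, above its Th2 samples (7.20 to 7.91). Septin8 had a Th0 mean of 7.61, beside 7.63 to 7.92 in its Th2 samples. Rad50, which lies between Il13 and Il5 and holds the locus control region of the cluster, had 9.12 to 9.19 in Th1 and 9.09 to 9.32 in Th2 samples and was not called (-0.09).

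Receptors of Th2 cells were lower in Th1 in 12 of 13 cases (17.5% over all genes), with a median of -1.44. Tnfrsf8, the gene of CD30, had 6.13, 6.36 and 6.10 in Th1, against 11.57, 11.94 and 11.89 in Th2 (-5.6 ± 0.24). Il1r2, a decoy receptor for interleukin-1, differed by -4.97 ± 0.38, Il17rb, the receptor for interleukin-25, by -3.92 ± 0.25, and the chemokine receptors Ccr8 and Ccr4 by -3.47 ± 0.33 and -1.88 ± 0.23. Il4ra, the receptor that sustains the Th2 state, had 10.13 to 10.16 in Th1, against 11.52 to 11.62 in Th2 (-1.44 ± 0.08). Cysltr1, a leukotriene receptor (-1.87 ± 0.22), Icos (-1.10 ± 0.13), Crlf2, a chain of the receptor for TSLP (-0.93 ± 0.09), and Cd200r1 (-0.92 ± 0.28) were lower as well. Il9r (-0.47, adjusted p = 0.039) and Il6ra (-0.35, adjusted p = 0.043) passed narrowly, and Il2ra, high in every sample at 12.08 to 12.46, was not called.

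**Figure D2:**
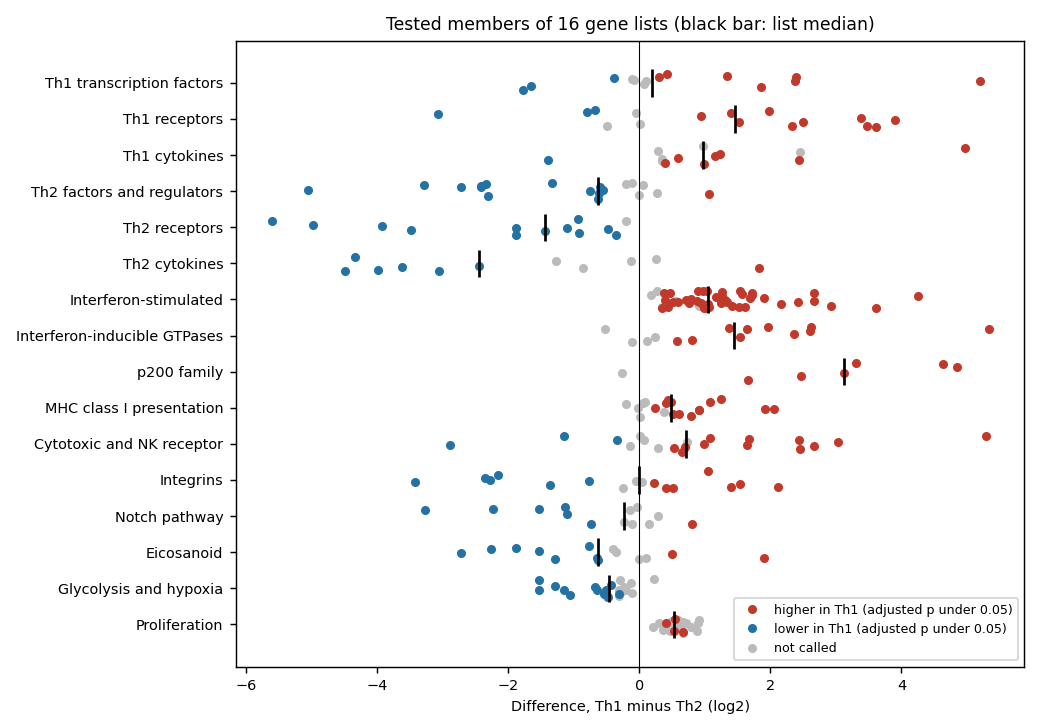
Differences between WT Th1 and WT Th2 cells (log2, horizontal axis) for the tested members of 16 gene lists; each point is a gene, coloured by its call, and each black bar is a list's median. All 41 called interferon-stimulated genes lie on the Th1 side, while 12 of the 13 Th2 receptors are called on the Th2 side.

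Interferon-stimulated genes were called in 1 direction. Of 46 tested, 41 were higher in Th1 and 0 lower, beside 19.6% and 17.5% over all genes. At least 2-fold higher were 26, beside 3.1% over all genes, and the median was 1.05. Oasl2, of the antiviral oligoadenylate synthetase family, had 9.90, 9.72 and 9.86 in Th1, against 6.68, 5.38 and 4.68 in Th2 (4.25 ± 0.49, adjusted p = 7.4e-08). The groups did not overlap, and the Th2 sample numbered 1 lay above the other Th2 samples. Ifit1bl1 (3.61 ± 0.36), the deubiquitinase Usp18 (2.93 ± 0.26), Rtp4 (2.67 ± 0.46), Oas2 (2.66 ± 0.46) and Ifit2 (2.42 ± 0.22) came next. The factors that carry interferon signals differed less, with Irf7 at 1.17 ± 0.25, Stat2 at 0.52 ± 0.20 and Irf9 at 0.44 ± 0.15. Slfn8, Isg20, Oas1b, Slfn2 and Slfn5 were not called, with differences between 0.18 and 0.91.

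Set beside Th0, the interferon-stimulated genes were mostly below Th0 in Th2 cells and not called in Th1 cells. In Th1 0 of 46 were above Th0 and 1 was below, with a median difference of -0.12, while in Th2 0 were above and 41 below, with a median of -1.15. The backgrounds over all genes were 5.43% above and 5.4% below in Th1, and 17.2% above and 22.9% below in Th2. Oasl2 had 9.81, 10.26 and 10.17 in Th0 cells, so that Th1 differed from Th0 by -0.25 (adjusted p = 0.86) and Th2 by -4.50 (adjusted p = 2.4e-08). The mean level over the 46 genes was 8.89, 8.76 and 8.95 in the Th1 samples, against 7.94, 7.49 and 7.29 in the Th2 samples, with a Th0 mean of 8.99. The Th2 sample numbered 1 was the highest of the Th2 samples in 33 of the 41 called genes. Without it, 38 genes were called higher and the median was 1.25.

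**Figure D3:**
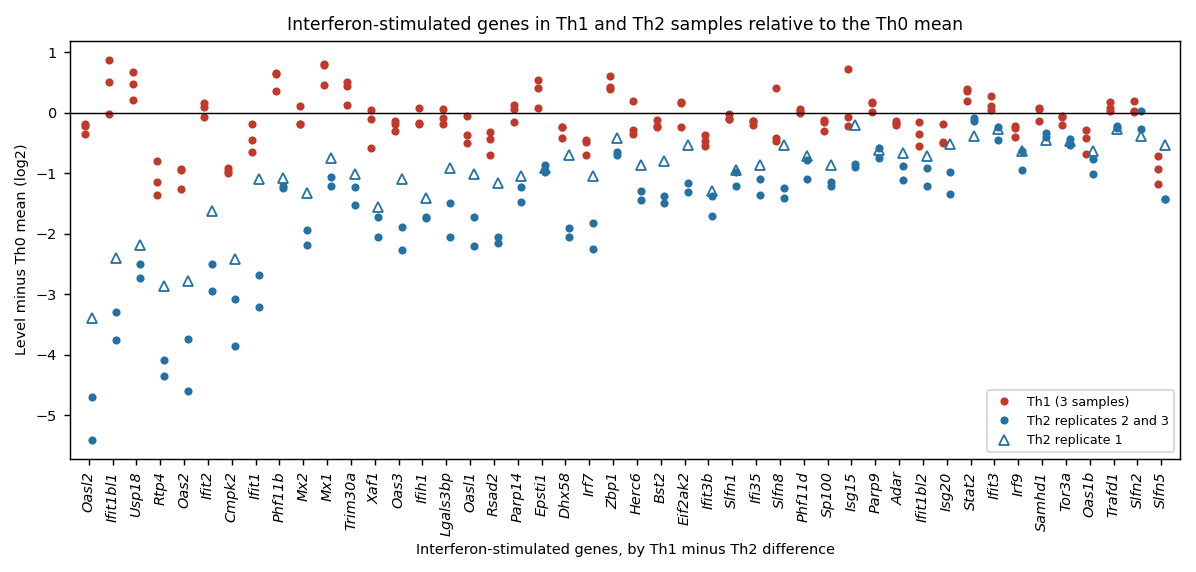
Levels of 46 interferon-stimulated genes in each WT Th1 and WT Th2 sample minus the WT Th0 mean (log2, vertical axis), with genes ordered by their Th1 minus Th2 difference; red points are Th1 samples, blue points and open triangles Th2 samples. The Th1 samples lie close to 0 for most genes, while the Th2 samples lie below it, the triangles of Th2 replicate 1 mostly above the other Th2 points.

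The interferon-inducible GTPases, which attack the vacuoles of intracellular parasites, were higher in Th1 for 10 of 14 genes and lower for 0. Their median was 1.45, and the shares over all genes were 19.6% and 17.5%. Iigp1 had 10.73, 10.69 and 10.64 in Th1, against 6.26, 5.0 and 4.82 in Th2 (5.33 ± 0.68). Gbp3 (2.62 ± 0.26), Gbp5 (2.61 ± 0.31), Gbp7 (2.36 ± 0.25), Igtp (1.97 ± 0.28) and Irgm2 (1.65 ± 0.30) followed, and Gbp2b, Gbp4, Gbp8 and Gbp11 were not called. Set beside Th0, the list's median was 0.35 in Th1 and -0.87 in Th2. Guanylate-binding proteins and the p200 family below include genes of related sequence, so that probe sets may read more than their own gene and single members are uncertain.

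The promoters of 4 called GTPase genes, those with the largest differences among the ones with a lone RefSeq window, are shown because all 4 were called higher in Th1 than in Th2. The windows run from 250 bases before to 50 bases after the start on GRCm38.p6, all on the plus strand, at chr3:142496684-142496983 for Gbp5, chr3:142530086-142530385 for Gbp7, chr11:58199306-58199605 for Igtp and chr11:58214727-58215026 for Irgm2. Capitals mark GAAA, any 2 bases and GAAA again, the core of the interferon-stimulated response element that interferon regulatory factors are known to read, searched on both strands.
Gbp5: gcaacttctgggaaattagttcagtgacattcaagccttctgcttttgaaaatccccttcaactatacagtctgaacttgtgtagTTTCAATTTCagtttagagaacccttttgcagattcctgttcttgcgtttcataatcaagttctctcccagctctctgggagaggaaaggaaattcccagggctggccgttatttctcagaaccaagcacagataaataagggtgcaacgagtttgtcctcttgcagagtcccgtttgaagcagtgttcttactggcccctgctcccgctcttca
Gbp7: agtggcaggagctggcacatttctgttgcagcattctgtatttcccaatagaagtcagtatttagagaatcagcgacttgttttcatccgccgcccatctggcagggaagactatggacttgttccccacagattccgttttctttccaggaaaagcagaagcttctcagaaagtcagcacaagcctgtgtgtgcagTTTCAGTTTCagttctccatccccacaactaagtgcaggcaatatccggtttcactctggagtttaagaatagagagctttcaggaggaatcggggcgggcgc
Igtp: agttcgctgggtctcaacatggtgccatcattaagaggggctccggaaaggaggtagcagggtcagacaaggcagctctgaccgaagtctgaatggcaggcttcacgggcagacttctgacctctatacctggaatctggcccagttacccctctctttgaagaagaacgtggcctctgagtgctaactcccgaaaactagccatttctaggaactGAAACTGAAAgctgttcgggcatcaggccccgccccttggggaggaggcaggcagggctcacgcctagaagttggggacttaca
Irgm2: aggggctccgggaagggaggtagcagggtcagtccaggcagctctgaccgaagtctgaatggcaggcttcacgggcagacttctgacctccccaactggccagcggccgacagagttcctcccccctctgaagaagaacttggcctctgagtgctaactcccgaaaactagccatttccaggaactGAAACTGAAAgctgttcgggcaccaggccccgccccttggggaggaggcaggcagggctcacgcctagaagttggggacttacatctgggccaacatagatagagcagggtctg
Each window holds the motif once, with its first letter 165 bases before the start in Gbp5, 53 in Gbp7, 34 in Igtp and 64 in Irgm2, and the marked letters are the same in Igtp and Irgm2, which lie close together on chromosome 11. All 6 called GTPase genes with a window held it, as did 14 of 31 called interferon-stimulated genes and 4 of 5 called p200 genes with one, beside 3.99% of all 27025 genes. Of the called Th2 genes with a window, 1 of 3 cytokine genes, 0 of 9 receptor genes and 0 of 11 factor genes held it. That cytokine gene was Il4, in whose window above it is not marked.

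The p200 family of DNA-sensing proteins, clustered on chromosome 1, had 6 of 7 tested members higher in Th1, beside 19.6% over all genes. The median was 3.13. Ifi204 had 9.45, 8.49 and 8.95 in Th1, against 5.49, 3.54 and 3.32 in Th2 and 3.48, 4.38 and 3.84 in Th0. Th1 lay above Th0 (5.07, adjusted p = 2.4e-09), and Th2 against Th0 was not called (0.22). Among its relatives, Ifi214 stood at 4.63 ± 0.50, Ifi213 at 3.31 ± 0.40 and Ifi209 at 3.13 ± 0.42 between Th1 and Th2, and at 0.15, -0.35 and -0.03 between Th1 and Th0. Aim2, the inflammasome sensor, was not called (-0.26).

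Genes of antigen presentation by MHC class I were higher in Th1 in 13 of 19 cases and lower in 0. The shares over all genes were 19.6% and 17.5%, and the list's median was 0.49. Nlrc5, the activator of class I genes, had 10.12, 10.25 and 10.31 in Th1, against 8.23, 8.34 and 7.94 in Th2 (2.05 ± 0.21). The immunoproteasome subunits Psmb10 (1.25 ± 0.15) and Psmb9 (1.09 ± 0.18), the peptide trimmer Erap1 (0.91 ± 0.10) and Tapbpl (0.91 ± 0.13) were higher. The tested genes of the H2-T class I chains were also higher, by 0.49 to 1.92. The class I chains B2m and H2-K1 were high in all samples and not called, H2-K1 at 12.11 to 12.34 in Th1 and 12.17 to 12.21 in Th2 samples.

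Cytotoxic and NK receptor genes were higher in Th1 in 12 of 20 cases and lower in 3, beside 19.6% and 17.5% over all genes. The median was 0.71. Nkg7, a membrane protein of cytotoxic granules, had 11.62, 11.63 and 11.68 in Th1, against 6.47, 6.44 and 6.15 in Th2 (5.29 ± 0.38), with Th0 between them at 8.56, 9.84 and 8.96. The NK receptors Klrk1 (3.04 ± 0.23), Klrd1 (2.67 ± 0.27) and Klrc1 (1.68 ± 0.21) and the protease Ctsw (2.45 ± 0.21) were higher. Gzma, granzyme A, went the other way, with 6.39, 5.40 and 5.51 in Th1 and 8.19, 8.71 and 9.06 in Th2 samples (-2.89 ± 0.25), as did the cathepsin inhibitor Cst7 (-1.15 ± 0.20) and, by little, Srgn (-0.34 ± 0.12).

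Among genes not yet described, those that ranked highest in Th1 included Ly6a2 and Plac8. Ly6a2, a Ly6 surface protein whose family shares close sequences, had 10.99, 10.32 and 10.90 in Th1, against 5.20, 4.87 and 5.37 in Th2 (5.59 ± 0.35). Plac8, a cysteine-rich protein, had 10.25, 9.98 and 10.62 in Th1, against 4.74, 4.94 and 4.83 in Th2 (5.45 ± 0.31). Both were above Th0 in Th1 (5.6 and 3.84). The membrane proteins Ms4a4c (4.58 ± 0.28) and Ms4a4b (3.92 ± 0.37) were near Th0 in Th1 (0.63 and 0.11) and below it in Th2 (-3.95 and -3.81). Serpinb5, a serpin also called maspin (4.16 ± 0.28), Xdh, xanthine dehydrogenase (3.86 ± 0.26), the exonuclease Pld4 (3.60 ± 0.28), the endocytic protein Ehd3 (3.60 ± 0.24), Mctp2 (3.59 ± 0.26), the prothrombinase Fgl2 (3.56 ± 0.51), the costimulatory ligand Cd86 (3.46 ± 0.26) and the glycosyltransferase Galnt3 (3.35 ± 0.23) completed the first 25 together with genes named above. The ranking took only genes whose Th1 and Th2 samples did not overlap.

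The genes lowest in Th1 relative to Th2 included several better known from other tissues. Adamtsl3, a secreted matrix protein, had 4.28, 4.35 and 4.46 in Th1, against 10.90, 11.29 and 11.15 in Th2, a difference of -6.75 ± 0.14 (adjusted p = 3.7e-24). Htr1b, a serotonin receptor, had 4.53, 4.67 and 4.44 in Th1, against 10.22, 10.83 and 11.02 in Th2 (-6.15 ± 0.21), and Trpm6, a magnesium channel, differed by -6.04 ± 0.20. In Th1 Adamtsl3 and Htr1b differed from Th0 by 0.06 and -0.36, neither called, while in Th2 they were above Th0 by 6.81 and 5.79. Genes of hormones, neuropeptides and steroid synthesis were also in the first 25, with Pth, parathyroid hormone, at -5.01 ± 0.39, Nts, neurotensin, at -4.36 ± 0.14, Stc1, stanniocalcin, at -3.91 ± 0.31, and Cyp11a1, the enzyme that starts steroid synthesis from cholesterol, at -4.58 ± 0.24. Cyp11a1 had 5.04, 5.62 and 5.44 in Th1, against 9.72, 9.99 and 10.12 in Th2.

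Guidance molecules were there too. Efna5, the ephrin-A5 ligand, had 4.26, 4.22 and 4.09 in Th1, against 9.80, 10.19 and 10.32 in Th2 (-5.91 ± 0.14), the Eph receptor Epha2 differed by -4.26 ± 0.18 and the semaphorin receptor Nrp2 by -4.85 ± 0.25. Nrp1, by contrast, was higher in Th1 (2.02 ± 0.29). The rest were Cd24a, a glycoprotein of the cell surface (-5.38 ± 0.38), Tcaf3, of a family that binds TRP channels (-5.10 ± 0.18), Sval1 (-5.02 ± 0.22), the phospholipase Plcd1 (-4.92 ± 0.17), Fam229b (-4.28 ± 0.20), Adgre1, the gene of F4/80 (-4.21 ± 0.22), the kinase Map3k20 (-4.14 ± 0.32) and the scaffold Tanc2 (-4.08 ± 0.16), beside the Th2 genes named above.

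Of 17 chemokine receptors and other homing genes 4 were higher and 4 lower, near the backgrounds of 19.6% and 17.5%. Cxcr3, Ccr2, Cxcr6 and, by little, S1pr4 (0.42 ± 0.16) were higher in Th1. Ccr8, Ccr4, Cxcr4 (-2.03 ± 0.35) and Ccr10, a receptor of skin homing cells, were lower. Ccr10 had 4.59, 4.44 and 4.32 in Th1, against 9.02, 7.62 and 6.86 in Th2 (-3.38 ± 0.37). Ccr7 was not called (0.01).

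Of 16 integrin genes 7 were higher and 6 lower in Th1, beside 19.6% higher and 17.5% lower over all genes. Itga4 (2.12 ± 0.20), Itga2 (1.53 ± 0.19), Itgb1 (1.40 ± 0.17) and Itga6 (1.05 ± 0.15) were higher, as were Itgam (0.52 ± 0.15) and Itgal (0.41 ± 0.08). Itgae, the CD103 chain that binds E-cadherin, had 5.16, 4.89 and 4.80 in Th1, against 8.58, 8.53 and 7.98 in Th2 (-3.41 ± 0.20). Itgb3 (-2.36 ± 0.19), Itgb5 (-2.27 ± 0.18), Itga7 (-2.15 ± 0.32), Itga3 (-1.37 ± 0.16) and Itgav (-0.77 ± 0.11), among them the chains of vitronectin receptors, were lower. Of 15 genes for enzymes that build selectin ligands and related glycans, 7 were higher and 4 lower. Fut7 (0.78 ± 0.17) and Fut4 (0.97 ± 0.20), the fucosyltransferases of selectin ligands, were higher, and St6gal1, which caps glycans with sialic acid, was lower (-1.82 ± 0.14).

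Of 27 costimulatory genes and TNF family genes 12 were higher and 7 lower in Th1, beside 19.6% higher and 17.5% lower over all genes. The death-domain receptor Tnfrsf25 had 8.31, 8.27 and 8.45 in Th1, against 6.03, 6.18 and 6.23 in Th2 (2.20 ± 0.11). Cd27 (1.31 ± 0.19) and Tnfsf4, the OX40 ligand (1.47 ± 0.50), were higher too. Tnfrsf9, the gene of 4-1BB (-2.20 ± 0.55), and Tnfrsf4, the gene of OX40 (-1.09 ± 0.17), were lower. Among 17 coinhibitory genes 6 went each way. Btla (1.92 ± 0.23) and Pdcd1, the gene of PD-1 (1.40 ± 0.28), were higher, while Tigit (-3.24 ± 0.25), Entpd1 (-0.98 ± 0.25) and Ctla4 (-0.81 ± 0.23) were lower. Tigit had 6.60, 6.69 and 6.38 in Th1, against 9.66, 9.75 and 9.98 in Th2.

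Markers of other helper lineages gave no one direction. Foxp3, the factor of regulatory T cells, had 8.17, 8.73 and 8.0 in Th1, against 6.12, 5.75 and 6.08 in Th2 (2.32 ± 0.35), and both were below Th0 (10.70, 11.23 and 10.78). Ikzf2, the gene of Helios, was also higher in Th1 (1.46 ± 0.29), while of 19 genes tied to regulatory T cells 3 were higher and 9 lower. Il17a had 3.92 to 4.32 in Th1 and 4.04 to 4.08 in Th2 samples, against 8.0 to 9.13 in WT Th17 samples, and was not called. Of 15 Th17 genes 2 were higher and 4 lower, among them Batf (-2.15 ± 0.17). Of 15 genes of follicular helper cells 8 were higher and 2 lower. Over all genes, 19.6% were higher and 17.5% lower.

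Prdm1, the gene of Blimp-1 and a regulator of Il10, was lower in Th1 (-1.74 ± 0.15), and of 14 genes tied to the control of Il10, itself included, 7 were lower and 2 higher. Of 23 genes of the JAK, STAT and SOCS families 4 were higher and 8 lower, beside 19.6% higher and 17.5% lower over all genes. Jak2 had 10.34, 10.50 and 10.58 in Th1, against 11.50, 11.80 and 12.03 in Th2 (-1.30 ± 0.11), and Cish, a feedback inhibitor induced by STAT5, differed by -1.11 ± 0.21, Stat3 by -0.68 ± 0.09 and Socs3 by -0.58 ± 0.12. Ptpn6, the phosphatase SHP-1, was higher (0.89 ± 0.13).

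Notch pathway genes were lower in Th1 in 6 of 13 cases and higher in 1, beside 17.5% lower and 19.6% higher over all genes. Jag1, a Notch ligand, had 3.87 in each Th1 sample, against 7.06, 7.40 and 6.94 in Th2 (-3.26 ± 0.12). The target gene Hey1 (-2.22 ± 0.29), the ligand Jag2 (-1.53 ± 0.19), Rbpj, the DNA-binding partner of Notch (-1.12 ± 0.16), and Notch3 (-1.10 ± 0.21) were lower, and Notch2 was higher (0.80 ± 0.09). Eicosanoid genes were lower in 8 of 14 cases and higher in 2. Hpgds, which makes prostaglandin D2, had 4.4, 4.01 and 4.11 in Th1, against 6.0, 6.81 and 6.47 in Th2 (-2.26 ± 0.20). The prostaglandin receptors split, with Ptgir (-1.53 ± 0.17) and Ptger2 (-1.29 ± 0.23) lower and Ptger3 (1.90 ± 0.16) higher.

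Genes of glycolysis and the hypoxia response were lower in Th1 in 12 of 22 cases and higher in 0. The shares over all genes were 17.5% and 19.6%, and the list's median was -0.45. Slc2a3, a glucose transporter, had 8.49, 8.16 and 8.84 in Th1, against 9.91, 9.96 and 10.21 in Th2 (-1.53 ± 0.19), and Vegfa (-1.53 ± 0.20), Bnip3 (-1.28 ± 0.15), Aldoc (-1.14 ± 0.23), Pfkm (-1.05 ± 0.18) and Hk2 (-0.68 ± 0.19) were lower too. The 10 members not called, most enzymes of the main glycolytic steps among them, had differences between -0.49 and 0.22. Set beside Th0, the list's median was 0.52 in Th1 and 0.91 in Th2. Proliferation genes had a median of 0.52. Of 28 tested 4 were called, each of them higher (Pcna, Mcm3, Mcm7 and Mcm4, between 0.40 and 0.67), below the background of 19.6%. All 28 differences were above 0, and for 27 the samples of the groups did not overlap, beside 50.1% of all genes. Mki67 had 11.40 to 11.57 in Th1 and 11.15 to 11.37 in Th2 samples and was not called (0.22 ± 0.42).

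Markers of the sorted cell type were present in both groups. Cd4 had 11.11 to 11.29 in Th1 and 11.01 to 11.17 in Th2 samples. Of 9 T cell genes tested 4 were higher in Th1 by at most 0.77 and 0 lower, beside 19.6% and 17.5% over all genes. Cd8a (4.77 to 5.13 in Th1, 4.43 to 5.64 in Th2) and Cd8b1 (7.34 to 8.17 in Th1, 7.76 to 7.88 in Th2) were not called. Of 19 myeloid and dendritic cell markers 7 were tested, 3 lower (Adgre1, Fcgr3 at -1.41 and Cd68 at -0.90) and 1 higher (Itgam), with a summed log2 level of 36.2 to 36.7 in Th1 and 41.9 to 42.8 in Th2. Adgre1 had 4.23 to 4.79 in Th1 and 8.30 to 8.81 in Th2, and Cd68 6.76 to 7.29 in Th1 and 7.65 to 8.04 in Th2. Csf1r had 4.94 to 5.20 in Th1 and 4.93 to 5.08 in Th2, and Cd14 3.87 to 4.03 in Th1 and 3.87 to 4.14 in Th2. Of 12 B cell markers 5 were tested, with sums of 28.3 to 29.4 in Th1 and 31.1 to 32.0 in Th2; H2-Ab1, an MHC class II chain, was lower in Th1 (-2.67 ± 0.22), with 7.38 to 7.72 in Th1 and 9.76 to 10.47 in Th2, H2-Eb1 was higher (0.61 ± 0.14) and Cd79b lower (-1.23 ± 0.16), and Cd79a stayed at 3.78 to 3.86 in Th1 and 3.64 to 3.89 in Th2. Of 12 mast cell, basophil and eosinophil markers 3 were tested, with sums of 16.8 to 17.3 in Th1 and 15.2 to 17.6 in Th2, Kit higher in Th1 (2.21 ± 0.27), Cpa3 lower (-1.17 ± 0.43) and Fcer1a at 3.17 to 3.35 in Th1 and 3.11 to 3.27 in Th2. Cpa3 had 6.73 in the Th2 sample numbered 1, against 4.90 and 4.77 in the others. Of 8 NK and innate lymphoid type 1 markers 2 were tested and both, Eomes and Klri2 (0.74 ± 0.28), were higher, with sums of 12 to 12.7 in Th1 and 9.3 to 10.5 in Th2 and with Ncr1 at 4.39 to 4.48 in Th1 and 4.34 to 4.54 in Th2. Of 8 innate lymphoid type 2 markers 5 were tested and 2, Il17rb and Nmur1 (-2.10 ± 0.37), were lower, with sums of 33.4 to 35.5 in Th1 and 40.1 to 41.1 in Th2. The 1 gamma-delta T cell gene of 7 and the 1 erythroid or platelet gene of 11 that were tested were not called. The part of these markers in the results was not tested, and in bulk samples fewer cells of a type and less RNA per cell cannot be told apart.

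The same contrast in TRIM28-deficient cells used other samples. Of the 405 genes at least 2-fold higher in WT Th1, 376 (92.8%) had the same sign in KO and 306 (75.6%) were called there, at backgrounds of 17.8% higher and 18.6% lower in KO. Of the 569 that were lower, 551 (96.8%) had the same sign and 487 (85.6%) were called. Tbx21 differed by 4.54 in KO and 5.20 in WT, Gata3 by -1.70 and -2.31, Il4 by -4.09 and -4.33, and none of these differences between genotypes was called.

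A difference between KO and WT in the Th1 over Th2 contrast itself was called for 1316 genes (10.1%), among them 109 of the 405 and 182 of the 569. Efna5 had 4.01, 4.05 and 4.15 in KO Th1 and 4.80, 4.90 and 4.72 in KO Th2, so that its difference was -0.74 in KO against -5.91 in WT. Tcaf3 and Nts lay between 3.66 and 4.26 in all 6 KO samples, with differences of -0.04 and -0.14 in KO against -5.10 and -4.36 in WT. Cd24a had 9.19, 7.84 and 7.62 in KO Th1 and 8.03, 9.27 and 8.26 in KO Th2 (-0.30, against -5.38 in WT), and Ly6c2 had 10.87, 12.05 and 11.13 in KO Th1 and 11.22, 11.63 and 11.67 in KO Th2 (-0.15, against 3.47 in WT). For Efna5, Tcaf3 and Nts the KO Th2 samples lacked the high level of WT Th2, for Ly6c2 the KO Th2 samples (11.22 to 11.67) lay above the WT Th2 samples (8.06 to 9.04) and below the WT Th1 samples (11.99 to 12.33), and for Cd24a both KO groups lay between the WT groups. The KO Th1 sample numbered 1 stood apart from the other KO Th1 samples (correlations of 0.974 and 0.977, against 0.988 between the others); without it 662 genes were called, and Efna5, Tcaf3, Nts, Cd24a and Ly6c2 kept their calls. Leaving out WT Th1 sample 2 gave 835 genes and leaving out WT Th2 sample 2 gave 873. Leaving out each of the other 5 KO Th1 and KO Th2 samples, an alternative chosen after seeing the data, gave 937 to 1564 genes.

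**Figure D4:**
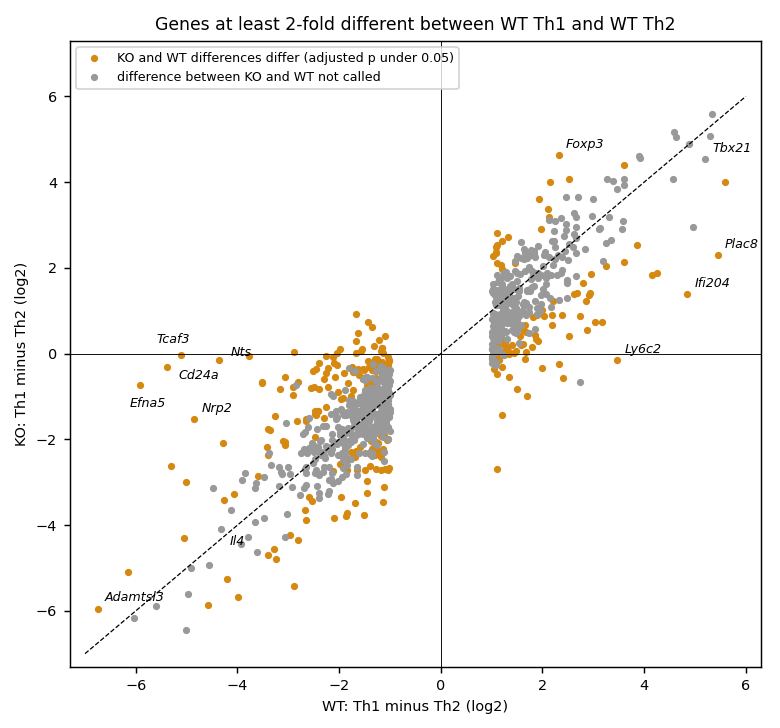
Differences between Th1 and Th2 cells (log2) in KO (vertical axis) and WT (horizontal axis) for the 405 genes at least 2-fold higher and the 569 at least 2-fold lower in WT Th1 than WT Th2; each point is a gene, orange where the KO and WT differences differed at an adjusted p under 0.05, and the dashed line marks equal differences. Most points follow the line, while Efna5, Tcaf3, Cd24a, Nts and Ly6c2 lie between -0.74 and -0.04 in KO.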

How the data were processed

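RNA of each sample was hybridised to an Affymetrix array, per the labels' protocols. The deposited values are log2 levels, and the submitters' processing notes name RMA, oligo and R 3.1.0; other versions and settings are not given in the sources used here. The values (2.05 to 13.5) were used as deposited. Of 41345 probe sets, 23521 had 1 gene symbol in the platform table, 1814 had several and 16010 none; genes were named from the first kind only, by the probe set with the highest mean where a gene had several (1082 of 22180 genes). A gene was tested if its level passed 5.26, the median of the whole table, in 3 or more of the 36 samples (13082 genes).

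All 36 samples, in 12 groups, entered a single model of group means in limma 3.58.1 under R 4.3.3, without a replicate block, and p-values were adjusted by Benjamini-Hochberg over all genes tested. The named genes are the 25 highest and 25 lowest called genes whose samples did not overlap (uncharacterized, antigen receptor, small RNA and Y-linked symbols left out), the tested members of the Th1 and Th2 lists, up to the 6 highest and 6 lowest called genes of each other list, and Trim28, Foxp3, Il17a, Il10, Il2 and Mki67. Other list members (Cd4, Cd8a, B2m, H2-K1, Rad50, Ccr7, Aim2 and the uncalled interferon genes and GTPases, for example) were named after their values were seen. The 43 gene lists come from textbook knowledge, and members and lists were chosen with earlier results of these data known. List members with no probe set of their own are not analysed here, and some items are not reported here. On simulated data, in which a seeded set of genes differed between WT Th1 and WT Th2, 30 of 67 genes with a log2 difference of 0.5 were recovered, 60 of 67 with 1 and 65 of 66 with 2, with 12 false calls among 12882 genes. The changed genes were a far smaller share there than the 37.1% called in the data, and the noise was drawn as normal. These rates therefore need not hold for the calls reported here. Promoter windows came from RefSeq (GRCm38.p6). The alternatives were other filters, scalings, priors, weights, sample sets and blocks, and leaving out each of the 6 WT samples or, for the difference between KO and WT, each of the 6 KO samples (all but KO Th1 sample 1 chosen after seeing the data).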

Additional observations from a re-analysis of the deposited data

Results flagged for a closer look

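The difference between Th1 and Th2 cells differed between KO and WT cells, by the test of the difference itself (limma, adjusted p under 0.05), for 68 of the 253 genes named here that were tested, with 31 values above 0 and 37 below. Each value in parentheses is the KO difference minus the WT difference (log2). Genes were partly chosen by their WT difference, which is one side of this test, so these values do not show how often such differences occur. Without KO Th1 sample 1, which stood apart from the other KO Th1 samples, 41 of the 68 were still called and 27 were not, and all 27 kept their sign. For those 27 the value without that sample follows the value with it.

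Among genes higher in WT Th1, the difference was smaller or turned in KO, with or without that sample, for Ly6c2 (-3.62), Ifi204 (-3.46), Plac8 (-3.15), Serpinb5 (-2.34), Etv5 (-2.33), Klrk1 (-2.29), Usp18 (-1.52), Hopx (-1.48), Tnfsf10 (-1.18), Klrc1 (-1.17), Ptger3 (-0.998) and Fut7 (-0.99). The call was lost without that sample for Oasl2 (-2.36, then -1.92), Ly6a2 (-1.59, then -0.84), Pld4 (-1.47, then -1.29), Eomes (-1.42, then -1.21), Xdh (-1.33, then -1.18), Dapl1 (-0.98, then -1.04), Fut4 (-0.96, then -0.74), Gfi1 (-0.94, then -0.98), Stat2 (-0.87, then -0.75), Nup107 (-0.70, then -0.55), Mdm1 (-0.66, then -0.47) and Notch2 (-0.49, then -0.44). It was larger in KO for Foxp3 (2.32), and for Itga4 (1.08, then 0.81), Cd226 (0.93, then 0.87) and Cxcr3 (0.80, then 0.69), which lost the call. Among genes lower in WT Th1, the value was above 0, with or without that sample, for Efna5 (5.17), Cd24a (5.08), Tcaf3 (5.06), Nts (4.22), Nrp2 (3.31), Fam229b (2.19), Sval1 (2.03), Nmur1 (1.89), Jag1 (1.80), Hpgds (1.80), Itgae (1.23), St6gal1 (1.13), Bhlhe41 (1.08), Htr1b (1.06), Ifngr2 (0.95), Adamtsl3 (0.80), Epas1 (0.74), Jak2 (0.62), Il4ra (0.56) and Ets1 (0.49). It was above 0, with the call lost without that sample, for Hey1 (1.45, then 1.32), Jag2 (0.96, then 0.79), Slc2a3 (0.94, then 0.89), Epha2 (0.85, then 0.86), Tanc2 (0.80, then 0.78) and Il6ra (0.75, then 0.59). The value was below 0, a more negative difference in KO, for Gzma (-2.53), Cysltr1 (-1.92), Tigit (-1.55), Cyp11a1 (-1.30), Nfil3 (-1.28), Adgre1 (-1.04) and Stat5a (-0.81). It was below 0, with the call lost without that sample, for Il24 (-1.70, then -1.37), Aldoc (-1.13, then -0.98), H2-Ab1 (-0.98, then -0.63) and Bnip3 (-0.78, then -0.66). Among genes not called in WT, the values were those of Slamf7 (-2.01), which kept its call without that sample, and Gbp11 (-1.87, then -1.56) and Ccr7 (0.58, then 0.49), which lost it.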

How the results depend on the processing

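Of 4774 pairs of a named gene and an alternative (253 genes, 19 settings), 4609 kept direction and side of the threshold, 96 lost the call, 42 gained it and 27 changed sign, and 190 genes were called in all settings. With array weights 3883 genes were called higher, and 2099 for the difference between KO and WT. Leaving out each of the 6 WT and 6 KO samples gave 662 to 1564 genes for that difference. Leaving out each of the 6 WT samples gave 1815 to 2684 higher, 1795 to 2330 lower, 390 to 494 at least 2-fold higher and 532 to 657 at least 2-fold lower, 20 to 23 Th1 and 28 to 32 Th2 list members, 35 to 38 interferon-stimulated genes and 9 to 10 GTPases. Signs turned for 11 uncalled genes near 0. With array weights Bhlhe40 was -0.011, Ccr7 -0.021, Cd8b1 0.072, Rad50 0.012 and S1pr5 0.0060, Il17a was -0.0071 after quantile normalization and -0.0082 after cyclic loess, and Dennd1b was 0.024 as a mean of probe sets. Without single samples, Bhlhe40 ran from -0.093 to 0.23, Ccr7 from -0.061 to 0.079, Cd8a from -0.12 to 0.49, Cd8b1 from -0.19 to 0.23, Dennd1b from -0.065 to 0.054, Hlx from -0.23 to 0.037, Il17a from -0.083 to 0.11, Il27ra from -0.063 to 0.16, S1pr5 from -0.13 to 0.019 and Tnfsf11 from -0.36 to 0.048. The cause was not tested. Same-numbered Th1 and Th2 samples correlated at 0.35, 0.07 and 0.21 in their deviations from the group means, and differently numbered ones at -0.31 to 0.14. The samples numbered 1 correlated with other numbers only negatively (-0.31 to -0.15). The main model took no pairs, and whether the numbers mark pairs was not tested. With a fixed replicate block over the 6 samples 2625 genes were higher and 2189 lower, and with a random replicate block 2692 and 2379. The difference between KO and WT has no value in fits of the WT samples alone. The number of arrays limits the precision.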

Other observations

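Of 27 genes tested that the T cell receptor induces early, 4 were higher and 5 lower in Th1, near the backgrounds of 19.6% and 17.5% over all genes. Etv5, an Ets factor downstream of ERK, had 7.92, 8.14 and 8.40 in Th1, against 6.64, 5.85 and 6.02 in Th2 (1.98 ± 0.20), and the ERK pathway inhibitor Spry1 (1.46 ± 0.16) and Myc (1.38 ± 0.20) were higher too. Dusp4, a phosphatase that inactivates MAP kinases, had 7.65, 8.39 and 8.22 in Th1, against 9.94, 10.58 and 10.84 in Th2 (-2.37 ± 0.36), and Ier3 (-2.21 ± 0.32) and Tnfaip3, the gene of A20, were lower (a difference of -1.64). Jdp2, a repressor of the activator protein 1 family, had 5.67, 6.11 and 6.06 in Th1, against 8.02, 9.41 and 9.50 in Th2 (-3.03 ± 0.26). Etv5, Dusp4 and Jdp2 did not overlap between the groups, at a background of 50.1% of all genes.

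Of 20 genes of apoptosis 5 were higher in Th1 and 3 lower, near the backgrounds of 19.6% and 17.5% over all genes. Among them were the death receptor Fas (0.82 ± 0.18) and Mcl1, a survival protein (a difference of -0.55). Of 19 genes of naive and resting T cells 5 were higher and 3 lower, also near those backgrounds. Dapl1 had 10.96, 10.44 and 10.71 in Th1 and 9.02, 8.22 and 8.25 in Th2 samples (2.21 ± 0.21). Of 26 genes of sterol and lipid synthesis 2 were higher and 0 lower, below the backgrounds. Of 17 genes of amino acid transport and polyamine synthesis 4 were higher and 3 lower, near the backgrounds. Odc1, the enzyme that starts polyamine synthesis, stood at 0.76 ± 0.20.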
